A study of Homo sapiens with 6 samples.

Results

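The G1 cyclins, cyclin-dependent kinases (CDKs) and CDK inhibitors are among the genes that control whether a dividing cell passes from G1 into S phase. The set was named by gene symbol and holds 10 of the 23346 genes counted, namely the D cyclins CCND1, CCND2 and CCND3, the E cyclins CCNE1 and CCNE2, the kinases CDK4 and CDK6, and the inhibitors CDKN1A, CDKN1B and CDKN2B. They were followed in poly(A) RNA from BT549 cells, an established mesenchymal-like breast cancer cell line labelled wild type in genotype and grown in RPMI with serum. In 3 libraries the cells had received siRNA against BNC2, the zinc finger protein basonuclin-2, and in 3 they had received a negative control (NC) siRNA, each at 20 nM with RNA prepared 6 d later. The BNC2 siRNA was an equal mix of 3 duplexes, so that no duplex was sequenced alone, and all 6 libraries come from 1 cell line. The labels name the Lipofectamine reagent that the methods of the study give for plasmids, whereas those methods name RNAiMax for siRNA.

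In a cycling cell, growth signals raise the D cyclins, which bind CDK4 or CDK6 and phosphorylate the retinoblastoma protein RB1. RB1 then releases E2F transcription factors, and cyclin E with CDK2 drives the cell into S phase. The INK4 inhibitors, with CDKN2B (p15) among them, bind CDK4 and CDK6 directly, whereas the CIP/KIP inhibitors CDKN1A (p21) and CDKN1B (p27) act chiefly on CDK2 complexes and also take part in the assembly of cyclin D with its kinase. CDKN2B is a standard target of TGF-β signalling. BT549 cells are known to lack RB1 protein, which limits them as a model of this pathway.

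The reagents define the comparison and are therefore shown first. Each antisense (guide) strand is given 5′ to 3′, with the seed (bases 2 to 8) in capitals and the DNA bases of the overhang written as t.
BNC2 siRNA 1: uUUACACUgaucacaagucct
BNC2 siRNA 2: uUGUCAUAgaaugucuucctt
BNC2 siRNA 3: uUUCGGCUucguacagaggtt
NC siRNA: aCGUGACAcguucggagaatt
The 7-base complement of the seed of BNC2 siRNA 2 was present in the 3′ UTR of the canonical transcript of 1 member, CDK6, and the complements of the other seeds in no member. CDK6 has a 3′ UTR of 10219 bases, and the same 7 bases were present in 10.2% of the 3′ UTRs of the genes tested. The complement was present in 13.7% of these 3′ UTRs for BNC2 siRNA 1, in 2.19% for BNC2 siRNA 3 and in 3.17% for NC siRNA. These matches describe letters only, and their part in the values below was not tested.

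The libraries held between 16093978 and 18246254 counts. BNC2, the siRNA target, was at 64.6% of its control level (log2 fold change -0.63, SE (standard error) 0.09, edgeR adjusted p = 8.2e-06) and was lower in every BNC2 siRNA library than in every NC siRNA library. All 5 mesenchymal markers examined (VIM, FN1, CDH2, ZEB1 and SPARC) passed the filter, with a summed level of 6367 to 6461 CPM (counts scaled to the library size by TMM) in NC siRNA libraries and 6501 to 6755 CPM in BNC2 siRNA libraries. The sum hides unlike members, with CDH2 at a mean of 152 CPM after NC siRNA and 391 CPM after BNC2 siRNA, and SPARC at 2347 and 1636 CPM. The 8 luminal epithelial markers summed to 3.85 to 5.86 CPM in NC siRNA and 0.395 to 0.872 CPM in BNC2 siRNA libraries, most of it KRT18 (243 counts against 23 over 3 libraries each), and the defining genes CDH1, EPCAM and ESRP1 were at 0 or 1 count. Of 5 leukocyte markers PTPRC stayed at or below 0.395 CPM, CD3E had at most 1 count, and CD68, which many other cells also express, made up most of a sum of 113 to 127 CPM in NC siRNA and 139 to 151 CPM in BNC2 siRNA libraries. CD14 went the other way, with 89 counts over the NC siRNA and 32 over the BNC2 siRNA libraries, and LYZ had at most 3 counts in a library. The 5 endothelial markers summed to at most 1.51 CPM.

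Of the 10 members, 9 had over 1 CPM in at least 3 of the 6 libraries and could be tested, and CCND2 could not. With a cutoff of 0.05 on the adjusted p-value, 7 members fell (CCND1, CCND3, CCNE1, CCNE2, CDK4, CDKN1A and CDKN1B) and 2 rose (CDK6 and CDKN2B). The background for these counts is high, since 72.9% of the 12186 genes tested were called, 36.6% of them upward and 36.2% downward as shares of all genes tested. The groups did not overlap for any of the 9 members, as was the case for 74.9% of all genes tested. The median log2 fold change of the 9 members was -0.60, and that of all genes tested was 0.00. An absolute log2 fold change over 1 was reached by 4 of the 9 members and by 18.1% of all genes tested. RNA was extracted from whole cultures, so fewer cells of a type (such as cells in one phase of the cycle) and less RNA per cell cannot be told apart in any of these values.

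**Figure D1:**
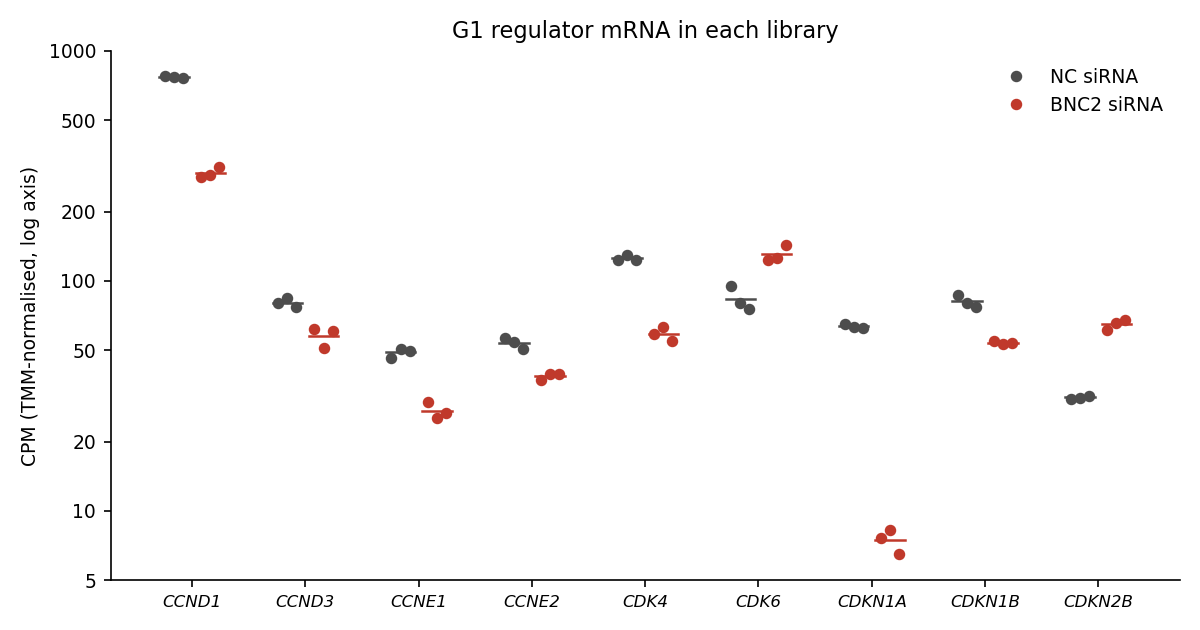
CPM (TMM-normalised counts, log axis) of the 9 tested members in each of the 6 libraries, with NC siRNA in grey, BNC2 siRNA in red, 1 point a library and a line at the group mean. The grey and red points are separated for every gene, with red lower in 7 genes and higher in CDK6 and CDKN2B, and the widest gap is at CDKN1A (63.5 against 7.47 CPM).

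Among the cyclins, CCND1, the most abundant G1 cyclin in these cells, moved most. Positions here and below are those of the canonical transcript in GENCODE. CCND1 (chr11:69455924-69469242 on the plus strand of GRCh37) was at 779, 769 and 763 CPM after NC siRNA and at 284, 288 and 313 CPM after BNC2 siRNA. The lowest control library was thus more than double the highest BNC2 siRNA library. The fall was to 38.3% of control, a log2 fold change of -1.39 (SE 0.06, edgeR adjusted p = 2.2e-12). CCND3, a D cyclin with the same kinase partners (chr6:41902690-41909546, minus strand), was at 80.0, 83.9 and 76.6 CPM in NC siRNA and 61.6, 51.1 and 60.7 CPM in BNC2 siRNA libraries. Here the change was smaller, with a log2 fold change of -0.47 (SE 0.08, adjusted p = 2.8e-05), and the nearest libraries of the groups lay 14.9 CPM apart. CCND2 (chr12:4382928-4414519, plus strand) had 2, 4 and 0 counts after NC siRNA and no count after BNC2 siRNA. A level of 3 counts, the limit that a count of 0 allows, corresponds to 0.168 to 0.191 CPM in these libraries, and 1 control library lay above it. Without the filter on low counts the edgeR adjusted p of CCND2 was 0.07 (unadjusted 0.039), so no difference was called for this gene.

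Per length of the canonical transcript, D cyclin mRNA summed to 221 ± 3.11 CPM per kb (SD, n = 3) in NC siRNA cells and 98.1 ± 5.33 CPM per kb in BNC2 siRNA cells, which is a ratio of 0.443. Within that sum CCND1 made up 82.3%, 81.4% and 82.6% after NC siRNA and 68.7%, 72.9% and 71.1% after BNC2 siRNA, and CCND3 nearly all of the rest. The groups did not overlap, and the mean share of CCND1 was lower by 11.2 percentage points (82.1% ± 0.639 against 70.9% ± 2.11, SD, n = 3). The exact two-sided permutation test gave p = 0.1, the smallest value that 3 libraries against 3 can give, so the 0.05 threshold is out of reach for any such share. Without division by length the difference was -6.95 percentage points.

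Cyclin E, the partner of CDK2, is encoded by CCNE1 (chr19:30302898-30315219, plus strand) and CCNE2 (chr8:95892452-95907429, minus strand). CCNE1 was at 46.3, 50.6 and 49.7 CPM with NC siRNA and at 29.7, 25.3 and 26.6 CPM with BNC2 siRNA. Its log2 fold change was -0.85 (SE 0.08, adjusted p = 6.2e-08). CCNE2 was at 56.3, 54.3 and 50.6 CPM with NC siRNA and at 36.9, 39.3 and 39.2 CPM with BNC2 siRNA. Every BNC2 siRNA library was below every control library for both genes, and the log2 fold change of CCNE2 was -0.48 (SE 0.07, adjusted p = 1.1e-05). CCNE2 also had 191 to 267 reads on its opposite strand in each library, equal to 24.9% of its own counts in NC siRNA and 31.5% in BNC2 siRNA libraries, and the stranded counts used here leave these out. The 2 genes contributed similar amounts per length, with CCNE1 at 55.5% ± 2.25 of their sum in NC siRNA and 49.1% ± 2.88 in BNC2 siRNA libraries (SD, n = 3). That difference of 6.34 percentage points (exact two-sided permutation p = 0.1) was separated narrowly, since the lowest control share was 52.96% and the highest BNC2 siRNA share 52.4%.

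The kinases CDK4 and CDK6, which phosphorylate RB1 as partners of the D cyclins, moved in opposite directions. CDK4 (chr12:58141510-58146093, minus strand) was at 124, 129 and 123 CPM after NC siRNA and 58.5, 62.8 and 54.5 CPM after BNC2 siRNA. The BNC2 siRNA libraries were close to 46.8% of control, with a log2 fold change of -1.10 (SE 0.06, adjusted p = 2.1e-10). CDK6 (chr7:92234235-92465887, minus strand) was at 94.6, 79.8 and 75.6 CPM after NC siRNA and 123, 126 and 143 CPM after BNC2 siRNA. NC siRNA replicate 1 was the highest of the controls and was still below every BNC2 siRNA library, and the log2 fold change was 0.65 (SE 0.08, adjusted p = 1.9e-06). The canonical CDK6 transcript is 11663 bases long and that of CDK4 1865 bases, so levels of the 2 genes are compared per length. On that scale CDK4 fell from 67.2 ± 1.69 to 31.4 ± 2.24 CPM per kb and CDK6 rose from 7.15 ± 0.854 to 11.2 ± 0.938 CPM per kb (SD, n = 3). Their sum was 74.4 ± 1.68 CPM per kb with NC siRNA and 42.6 ± 1.63 CPM per kb with BNC2 siRNA. CDK4 made up 89.1%, 91.0% and 91.1% of the sum in the control libraries and 74.9%, 75.7% and 70.4% after BNC2 siRNA, and was the larger part in all 6 on this scale, which rests on 1 canonical transcript a gene. The mean share of CDK4 was lower by 16.7 percentage points with BNC2 siRNA (exact two-sided permutation p = 0.1, the smallest possible). Without division by length the difference was -29.1 percentage points, and CDK6, with its longer transcript, made up the larger part of the counts in all 3 BNC2 siRNA libraries.

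**Figure D2:**
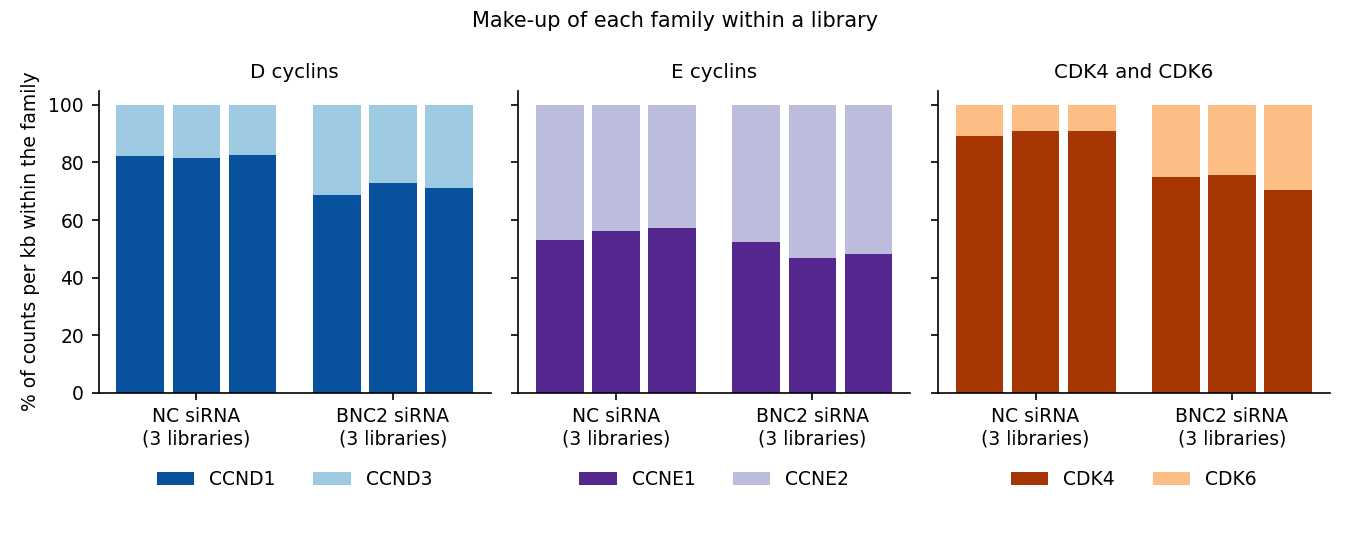
Percent of counts per kb of canonical transcript within each of 3 gene families, 1 stacked bar for each library (3 NC siRNA on the left of each panel, 3 BNC2 siRNA on the right). CCND2 is too low to be seen and is not drawn. The share of CCND3 is higher in BNC2 siRNA libraries (mean 29.1% against 17.9%), the share of CDK6 is higher (26.3% against 9.61%), and the shares of CCNE1 and CCNE2 lie near each other.

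Both CIP/KIP inhibitors of the set, CDKN1A and CDKN1B, fell. CDKN1A (chr6:36646491-36655109, plus strand), which encodes p21, was at 64.8, 63.3 and 62.5 CPM after NC siRNA and at 7.62, 8.29 and 6.49 CPM after BNC2 siRNA. In raw counts these were 1151, 1130 and 1038 reads against 131, 147 and 102. The fall was 8.47-fold, a log2 fold change of -3.08 (SE 0.09, adjusted p = 6.4e-14), and only 108 of the 12186 genes tested had a lower log2 fold change. CDKN1B (chr12:12870302-12875303, plus strand), which encodes p27, was at 86.9, 80.4 and 77.1 CPM with NC siRNA and at 54.5, 53.1 and 53.9 CPM with BNC2 siRNA. The BNC2 siRNA libraries lay within 1.35 CPM of each other and below all controls, and the log2 fold change was -0.60 (SE 0.07, adjusted p = 3.9e-07). Per length the 2 inhibitors stood at nearly the same level in control cells, with a ratio of CDKN1B to CDKN1A of 1.18, 1.12 and 1.08, and the ratio was 6.28, 5.63 and 7.29 in BNC2 siRNA libraries. Their summed level was 63.8 ± 2.63 CPM per kb with NC siRNA and 25.9 ± 0.392 CPM per kb with BNC2 siRNA (SD, n = 3).

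CDKN2B, the INK4 inhibitor p15 (chr9:22002902-22009304, minus strand), rose. It was at 30.8, 31.03 and 31.5 CPM in NC siRNA libraries and at 61.2, 65.7 and 67.4 CPM in BNC2 siRNA libraries. The controls were tightly grouped and every BNC2 siRNA library was close to double their level (208% of control, log2 fold change 1.06, SE 0.07, adjusted p = 7.1e-10). The locus is also transcribed on the plus strand as the long noncoding RNA CDKN2B-AS1 (chr9:21995132-22128102), which spans CDKN2B. CDKN2B-AS1 had 106, 122 and 92 counts with NC siRNA and 70, 69 and 61 counts with BNC2 siRNA. It fell (log2 fold change -0.63, SE 0.15, adjusted p = 0.0013), so the overlapping transcripts of the 2 strands moved in opposite directions. Reads on the strand opposite to CDKN2B within its own exons numbered 69 over the 3 NC siRNA and 57 over the 3 BNC2 siRNA libraries. By library they were 31, 28 and 10 with NC siRNA and 21, 25 and 11 with BNC2 siRNA. The groups overlapped there, so no fall on the opposite strand was seen within the exons of CDKN2B itself. CDKN2B-AS1 is not one of the 10 members and was examined because it overlaps CDKN2B.

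**Figure D3:**
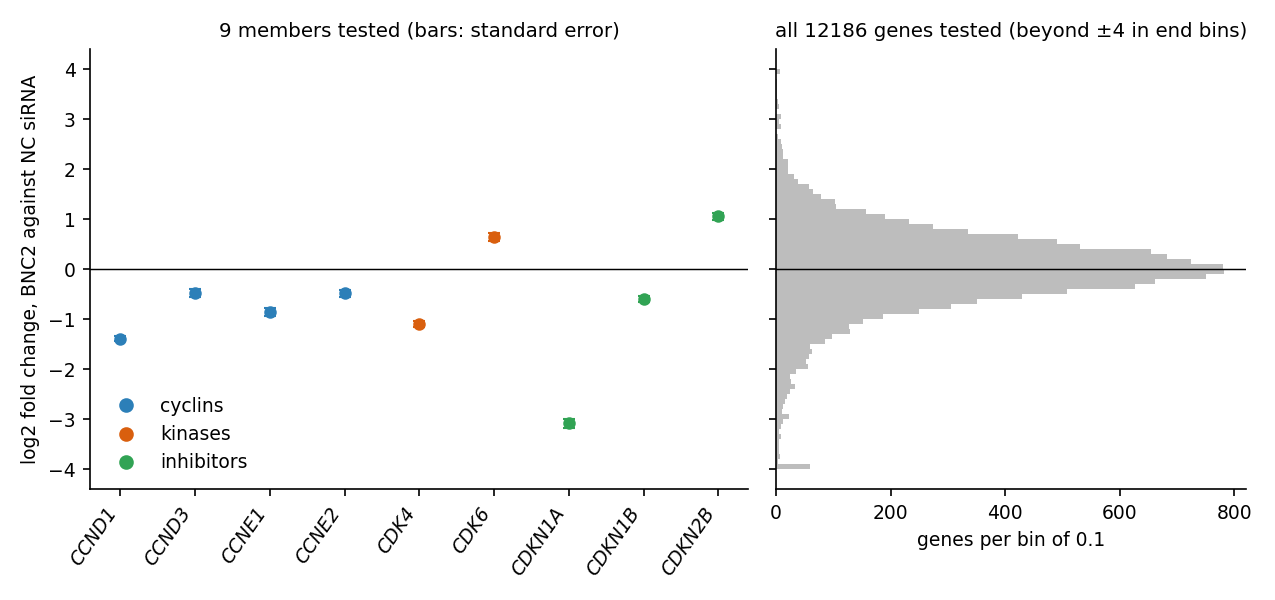
Left, log2 fold change (BNC2 siRNA against NC siRNA) of the 9 tested members with its standard error, coloured by role as cyclins, kinases or inhibitors. Right, the number of genes in each bin of log2 fold change over all 12186 genes tested, on the same vertical axis. CDKN1A at -3.08 lies in the lower tail, whereas CCND3 and CCNE2 (-0.47 and -0.48) lie within the body of the distribution.

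The members also changed places in the order of their levels per length. In NC siRNA cells the order was CCND1 (182 CPM per kb), CDK4 (67.2), CCND3 (39.6), CDKN1B (33.8), CDKN1A (30.0), CCNE1 (25.0), CCNE2 (20.1), CDKN2B (8.07), CDK6 (7.15) and CCND2 (0.0173). Of these neighbours, CDKN2B and CDK6 overlapped between libraries. In BNC2 siRNA cells the order was CCND1 (69.6 CPM per kb), CDK4 (31.4), CCND3 (28.5), CDKN1B (22.3), CDKN2B (16.8), CCNE2 (14.4), CCNE1 (13.9), CDK6 (11.2), CDKN1A (3.53) and CCND2 (0). CDK4 and CCND3 overlapped there, as did CCNE2 and CCNE1. CDKN1A was the fifth in control cells and the lowest detected member after BNC2 siRNA. The order rests on 1 canonical transcript for each gene and would shift if the cells used another.

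Promoter sequence was available from RefSeq (GRCh38.p14) for 7 members and was not used for CCND1, CCND2 and CCNE2. Each window runs from 250 bases before to 50 bases after an annotated start. Searched on both strands were an E2F-type motif (TTTNNCGC, in 6.89% of all 35116 promoters of the same length), an AP-1-type motif (TGANTCA, in 7.71%) and the E box (CACGTG, in 7.26%). Only the E box was present, in 2 of the 7 genes. These were CDK4, with 3 copies, and CDK6, with 1 copy in one of its 2 annotated promoters, and these are the kinases that moved in opposite directions. The 4 windows printed are those of both kinases and of the inhibitors with the largest fall and the largest rise, each read 5′ to 3′ on the strand of the gene, with the E boxes in capitals.
CDK4 (chr12:57752261-57752560, minus strand):
CDK4: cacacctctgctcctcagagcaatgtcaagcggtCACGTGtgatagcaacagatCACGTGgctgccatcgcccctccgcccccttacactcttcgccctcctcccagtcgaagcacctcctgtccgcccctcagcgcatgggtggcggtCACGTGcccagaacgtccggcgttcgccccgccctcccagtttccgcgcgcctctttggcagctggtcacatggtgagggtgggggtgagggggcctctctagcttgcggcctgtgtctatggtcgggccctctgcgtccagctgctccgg
CDK6 (chr7:92836524-92836823, minus strand):
CDK6: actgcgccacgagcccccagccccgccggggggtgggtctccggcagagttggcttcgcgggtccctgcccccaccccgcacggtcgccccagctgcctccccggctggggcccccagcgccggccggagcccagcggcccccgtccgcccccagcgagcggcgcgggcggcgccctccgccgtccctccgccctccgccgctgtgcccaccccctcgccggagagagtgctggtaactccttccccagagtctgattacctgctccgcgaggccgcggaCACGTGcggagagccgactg
CDKN1A (chr6:36678464-36678763, plus strand):
CDKN1A: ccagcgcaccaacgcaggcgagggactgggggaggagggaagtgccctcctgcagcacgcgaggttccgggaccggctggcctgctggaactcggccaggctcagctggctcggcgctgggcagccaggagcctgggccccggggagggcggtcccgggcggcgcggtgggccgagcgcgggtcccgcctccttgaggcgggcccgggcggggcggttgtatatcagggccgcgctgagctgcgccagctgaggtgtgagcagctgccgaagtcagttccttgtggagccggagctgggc
CDKN2B (chr9:22009256-22009555, minus strand):
CDKN2B: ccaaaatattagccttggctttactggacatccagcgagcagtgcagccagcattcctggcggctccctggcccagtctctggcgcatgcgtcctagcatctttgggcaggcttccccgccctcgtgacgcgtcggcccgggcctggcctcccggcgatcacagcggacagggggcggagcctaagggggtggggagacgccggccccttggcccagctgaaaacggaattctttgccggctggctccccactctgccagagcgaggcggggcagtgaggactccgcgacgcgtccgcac
The absence of a match says only that these letters are not in the window, and no binding was measured.

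Genes that act with the members were read from lists of the pathway. Of 5 other CDK inhibitors 4 could be tested and all 4 fell, with a median log2 fold change of -0.62, where 72.9% of all genes tested were called. CDKN2D (p19) fell from 25.8 ± 0.501 to 10.8 ± 1.298 CPM (SD, n = 3, log2 fold change -1.26), and CDKN2C (p18) from 128 ± 6.09 to 75.8 ± 2.32 CPM (-0.76). CDKN2A, the neighbour of CDKN2B on chromosome 9 and the source of p16 and p14ARF, was at 301, 296 and 338 CPM in NC siRNA and 243, 232 and 193 CPM in BNC2 siRNA libraries. The groups of CDKN2A did not overlap, and its log2 fold change was -0.48 (SE 0.08, edgeR adjusted p = 2.9e-05), opposite in sign to that of CDKN2B. The remaining gene tested, the phosphatase CDKN3, also fell (-0.29). CDKN1C (p57), the third CIP/KIP gene, did not pass the filter, with 14, 9 and 14 counts after NC siRNA and 8, 0 and 0 after BNC2 siRNA. It was called down when no filter on low counts was applied. CDKN2B was therefore the one INK4 gene of 4 that rose.

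The CDK2 list held 6 genes (CDK2, CDK7, CCNH, MNAT1, CDC25A and CDC37). Of these 4 rose and 1 fell, with a median log2 fold change of 0.16. The 83.3% called stand beside 72.9% of all genes tested. CDK2, the cyclin E partner, rose from 54.1 ± 1.64 to 64.7 ± 3.70 CPM (SD, n = 3), and its log2 fold change was 0.26 (SE 0.07, edgeR adjusted p = 0.0025). CDC25A, the phosphatase that activates CDK2, rose by 0.58, and CCNH, a cyclin of the CDK-activating kinase, fell by 0.30 on the log2 scale. CDC37 (0.16) is counted among the 4 that rose, although it is neither CDK2 nor a part of the CDK-activating kinase. The number of genes that rose was 2 with libraries scaled by total counts only, and also without BNC2 siRNA replicate 1, BNC2 siRNA replicate 2 or NC siRNA replicate 1. The median was 0.08 with scaling by total counts and 0.10 without NC siRNA replicate 1.

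Of 13 genes for pocket proteins and E2F factors 5 rose and 4 fell, with a median log2 fold change of 0.06. This is 69.2% called, near the 72.9% of all genes tested. Among the pocket proteins, which bind E2F, RB1 fell from 17.95 ± 1.499 to 12.5 ± 0.858 CPM (SD, n = 3, log2 fold change -0.52). Its relative RBL2 (p130), which acts in cells that leave the cycle, rose from 54.9 ± 3.25 to 120 ± 6.39 CPM (1.13). RBL1 (p107), the remaining pocket protein, also rose (0.64), so that 2 of the 3 rose. E2F2, an activating E2F, fell (-1.16), whereas E2F1, also an activator, rose (0.26). E2F7, a repressing E2F, rose (0.69), whereas the repressors E2F6 and E2F8 fell (-0.43 and -0.40). The direction of the list's median is not stable, since it was -0.01 with scaling by total counts and also when NC siRNA replicate 2 was left out, and 0.02 without NC siRNA replicate 3.

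Of 13 ubiquitin ligase genes that act on G1 regulators 6 rose and 3 fell, with a median log2 fold change of 0.09. Here too 69.2% were called, near the 72.9% of all genes tested. SKP2, the subunit that recognises CDKN1B for degradation, rose from 46.5 ± 2.28 to 75.8 ± 2.55 CPM (SD, n = 3, log2 fold change 0.70). Its partners SKP1 and CKS1B fell (-0.70 and -0.54). FBXO4, an F-box protein, rose (0.74). The median depended on each library, from 0.03 without NC siRNA replicate 2 to 0.17 without BNC2 siRNA replicate 1, and was 0.02 with scaling by total counts. The values concern mRNA only.

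Genes expressed in S phase and in G2 and mitosis moved both ways. Of 30 DNA replication and S phase genes 10 rose and 9 fell, with a median log2 fold change of 0.10. That median was 0.06 without NC siRNA replicate 1 and also with unstranded counts. It was 0.03 with scaling by total counts, where 7 rose and 10 fell, and 7 rose without NC siRNA replicate 3. GINS1, a subunit of the replicative helicase, rose from 56.2 ± 3.80 to 116 ± 9.42 CPM (SD, n = 3, log2 fold change 1.04), as did the replication kinase CDC7 (0.77). GMNN, which restrains licensing of origins, fell (-0.93), as did the flap endonuclease FEN1 (-0.68). Of 30 G2 and mitosis genes 6 rose and 12 fell, with a median of -0.11. HMMR and the survivin gene BIRC5 rose (0.92 and 0.63), and CKS2 and the kinetochore gene NDC80 fell (-0.73 and -0.63). With scaling by total counts, and also without NC siRNA replicate 3, 3 genes of this list rose. With that scaling 18 fell, and the median was -0.18, while it was -0.16 without NC siRNA replicate 2. In both lists the share of called genes (63.3% and 60.0%) was below the 72.9% of all genes tested, and the median absolute log2 fold change (0.19 and 0.20) was below that of all genes tested (0.44). No test of these shares was made.

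**Figure D4:**
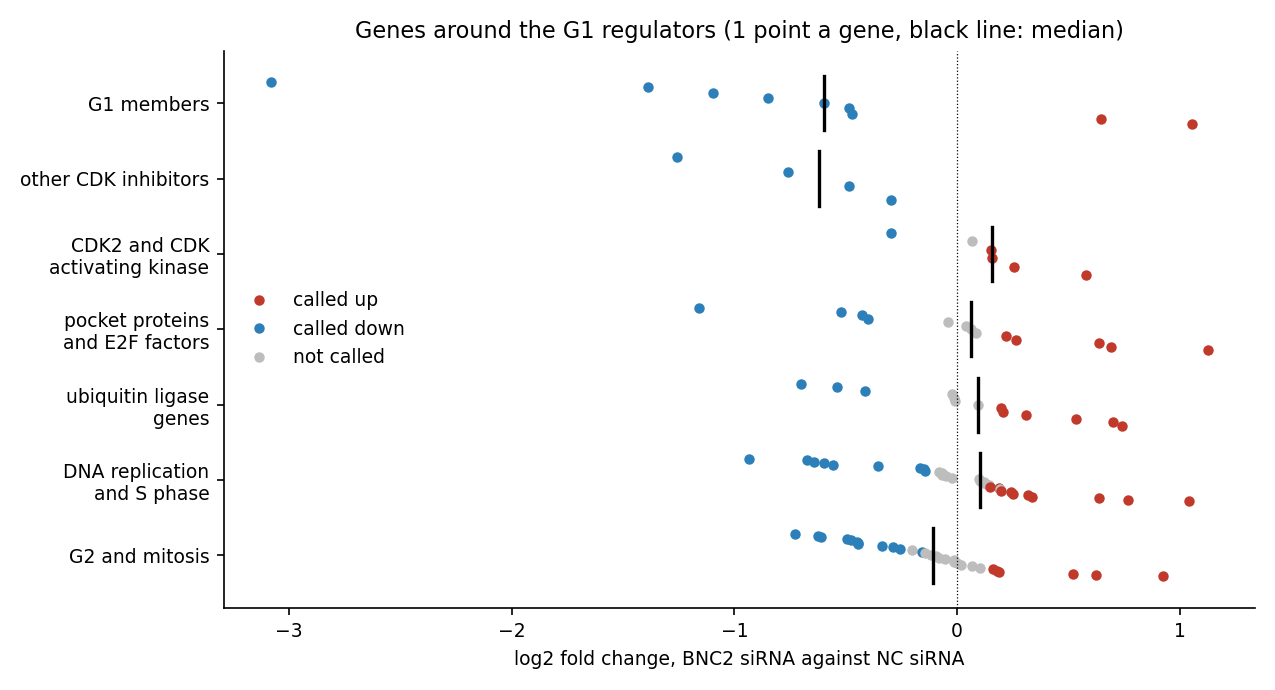
Log2 fold change (BNC2 siRNA against NC siRNA) of each tested gene in 7 lists, 1 point a gene, red if called up, blue if called down and grey if not called at an adjusted p-value of 0.05, with the median of each list as a black line. The medians of the G1 members (-0.60) and the other CDK inhibitors (-0.62) lie lowest, and those of the other 5 lists lie between -0.11 and 0.16.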

How the data were processed

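Poly(A) RNA of 6 BT549 cultures was sequenced. The authors mapped single-end reads with STAR 2.6.1d (hg19) and deposited raw counts of uniquely mapped reads for each of 23346 genes, without normalisation. In all 23346 genes the series table equals the reverse-strand column of the library tables, so antisense reads are left out. From 37.7% to 41.1% of a library's reads were assigned to no gene and stay outside the totals. The methods of the study describe 3 biological replicates. No 2 libraries of a group agreed within sampling noise (chi-square over degrees of freedom 3.38 to 10.9).

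Counts were compared with edgeR 4.0.16 (quasi-likelihood test, TMM scaling, over 1 CPM in at least 3 of 6 libraries, Benjamini-Hochberg adjustment over 12186 genes, called at 0.05) in R 4.3.3. CPM values are TMM-normalised. Shares were compared with exact permutation tests, for which 0.1 is the smallest p. Alternatives were the likelihood ratio test of edgeR (the test of the study), DESeq2 1.42.0, other scalings and filters, a replicate block, unstranded counts and leaving out each library. The procedure was also run on simulated counts, in which far fewer genes changed than were called here and all genes shared a common spread. That run does not show the error rate of the procedure in these data.

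The members and lists were chosen with earlier results of these data known. Beside the members, BNC2, RB1, CDK2 and CDKN2A, the text names from each list up to 2 called genes with the highest and 2 with the lowest log2 fold change. Named after their values were seen were CDKN1C, CDKN3, CDK7, MNAT1, CDC37, RBL1, E2F1, E2F6, E2F8 and CDKN2B-AS1. Canonical transcripts, with their positions, lengths and 3′ UTRs, are those of GENCODE 44 on GRCh37, and 87.6% of the genes tested had a length by symbol. Promoters come from RefSeq (GRCh38.p14) and siRNA sequences from the supplement of the study. A planned gene list and a planned marker are not reported here. CPM limits for a count of 0 use 3 counts and cover counting error only.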

Additional observations from a re-analysis of the deposited data

How the results depend on the processing

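The 9 tested members kept their direction and their side of the threshold in all 126 refits under 14 alternatives, with a highest adjusted p of 4.0e-04 and no log2 fold change moving by more than 0.09. The count stayed at 2 up and 7 down throughout. CCND2 enters only without the filter on low counts, with an edgeR adjusted p of 0.07. BNC2 ranged from -0.73 to -0.56 when a library was left out, CDKN1A from -3.16 to -3.00 and CDK6 from 0.56 to 0.73.

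With scaling by total counts only, the log2 fold change of a typical gene shifted by -0.08 and 44.5% of called genes were up, against 50.3%. Called up were then 2 genes of the CDK2 list (4 in the report) and 3 G2 and mitosis genes (6). Of the G2 and mitosis genes 18 were called down (12). When a library was left out, the 2 counts called up ranged from 2 to 3 and from 3 to 5, and the G2 and mitosis genes called down from 11 to 14. Without division by length, the difference in the share of CCND1 was -6.95 and in that of CDK4 -29.1 percentage points. With a library left out the 2 shares differed by -12.2 to -10.1 and by -17.8 to -15.1, and that of CCNE1 by -7.96 to -5.23. The cause of these shifts was not tested.

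Same-numbered libraries of the groups did not deviate together (correlations of -0.26, -0.09 and -0.15), so no sign of pairing by number was seen. Libraries of unlike number had correlations from -0.10 to 0.22. Deviations from a group mean sum to 0, so these correlations depend on each other and cannot show whether cultures were handled in pairs. With the number as a replicate block 8400 genes were called, against 8879, CDKN1A had a log2 fold change of -3.09, and 2 genes of the CDK2 list were called up. The alternatives that leave out a library keep 2 in one group.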
